A study of Oryza sativa Japonica Group with 12 samples.

Results

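Nrx1-1 (LOC4333075), a nucleoredoxin gene, and TRXH (LOC4342593), an h-type thioredoxin gene also listed as OsTrxh1 and RPP13-1, are 2 of the 24251 probe sets of a rice array that the platform annotation pairs with a gene, each with 1 probe set. They were taken by gene ID and chosen by their measured difference between lines overexpressing the transcription factor gene OsbHLH044 and null lines, as the mean of 2 couples of lines, so that difference is described here and not tested. Expression was measured in the stem base of 6-day-old rice plantlets, the part of the shoot from which crown roots emerge. All plants carried the crl1 mutation in the cultivar Taichung 65, a background that lacks crown roots. The overexpressing lines 67.1.11.7 and 67.5.9.12, here OE 67.1 and OE 67.5, were each compared with the null segregant sister line of the same couple, 67.1.1.5 or 67.5.13.4, here null 67.1 and null 67.5, which had lost the T-DNA. Each of the 4 lines had 3 arrays from independent repetitions, each of them a pool of several stem bases, so 12 arrays in all. Each couple comes from a single transformant, and the promoter that drives the transgene is not given in the sources used here. No gene of the annotation carries the name bHLH044 or CRL1, so neither level serves as a check of the labels. Values are log2 expression after RMA, and the array medians over all probe sets lay between 4.34 and 4.39.

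Thioredoxins are small proteins that reduce disulfide bonds of other proteins through a pair of cysteines in their active site. Those of the h type work mainly in the cytosol and are themselves reduced by NADPH-dependent thioredoxin reductase; in rice the protein RPP13-1 is known as an abundant thioredoxin of phloem sap. Nucleoredoxins are larger relatives that carry several thioredoxin-like domains, and in Arabidopsis NRX1 is known to keep hydrogen peroxide scavenging enzymes, catalases among them, in their reduced and active state.

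Nrx1-1 was lowest in the overexpressing lines and highest in null 67.5. On the arrays of null 67.1 its log2 level was 5.93, 5.79 and 5.70 in repetitions 1 to 3, against 5.09, 5.52 and 5.45 in OE 67.1. In null 67.5 it was 6.18, 6.46 and 6.48, against 5.18, 5.49 and 5.32 in OE 67.5. Within each couple every overexpressing array lay below every null array, an arrangement that 0.66% of the tested probe sets showed. The line means were 5.80 ± 0.12 (SD, n = 3) in null 67.1, 5.35 ± 0.23 in OE 67.1, 6.37 ± 0.17 in null 67.5 and 5.33 ± 0.16 in OE 67.5. The log2 difference between overexpressing and null line was thus -0.45 ± 0.13 (SE) in couple 67.1 and -1.04 ± 0.13 in couple 67.5, sizes of 1.37-fold and 2.06-fold on the linear scale, with a mean over both couples of -0.75 ± 0.09. In stem bases less RNA per cell and fewer cells that express a gene cannot be told apart.

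TRXH showed the same order of null above overexpressing line within each couple, with smaller log2 differences in these samples. Its log2 level was 8.11, 8.29 and 8.55 on the arrays of null 67.1 and 7.90 on each of the 3 arrays of OE 67.1. In null 67.5 it was 8.76, 8.49 and 9.05, against 8.00, 8.12 and 8.15 in OE 67.5. Again no overexpressing array reached a null array of its own couple. The line means were 8.32 ± 0.22 (SD, n = 3) in null 67.1, 7.90 ± 0.002 in OE 67.1, 8.77 ± 0.28 in null 67.5 and 8.09 ± 0.08 in OE 67.5. The SD in OE 67.1 was smaller than that of all but 12 of the 24251 probe sets, whose median SD in that line was 0.115, so the spread of this line by itself is no guide to the error and the model's pooled SE is used. With it, the log2 difference was -0.42 ± 0.13 in couple 67.1 and -0.68 ± 0.13 in couple 67.5, sizes of 1.33-fold and 1.61-fold, and -0.55 ± 0.09 on the mean of both couples.

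**Figure D1:**
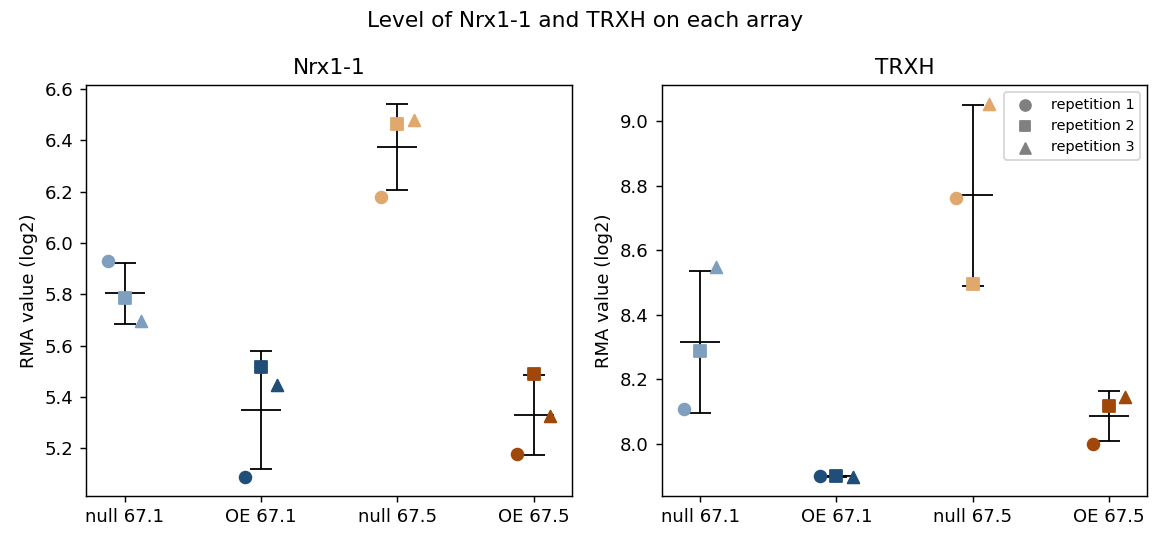
RMA values (log2, vertical axes, which do not start at 0) of Nrx1-1 (left) and TRXH (right) on each array of the 4 lines; symbols mark the repetition, horizontal lines the line mean and whiskers 1 SD (n = 3). Within each couple the overexpressing arrays lie below the null arrays, and null 67.5 has the highest mean of both genes.

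On the mean of both couples, 30 of 24251 probe sets were called lower (0.124%), and both genes belong to these 30, which is how they came to be chosen. Nrx1-1 had the 17th lowest difference of all probe sets and TRXH the 38th lowest. In couple 67.5 by itself both were among the 58 probe sets called lower (0.239%), and in couple 67.1 neither was the 1 probe set called lower (0.00412%). These counts describe the choice and support nothing further. When each array was left out in turn, the mean difference of Nrx1-1 ran from -0.80 to -0.68 and that of TRXH from -0.62 to -0.48. Nrx1-1 kept its call on the mean each time, while TRXH lost its call in most of these cases. These calls reuse the contrast that chose the genes, so they too describe the choice and are no support for either gene.

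The order of the line means is given for each gene. For Nrx1-1 it went up from OE 67.5 and OE 67.1, whose arrays overlapped, to null 67.1 and then to null 67.5, with gaps between the array ranges of 0.18 and 0.25. The order of its overexpressing lines, which differed by 0.02, turned with array weights and without OE 67.1 replicate 2 or 3 or OE 67.5 replicate 1. TRXH was lowest in OE 67.1, whose arrays lay 0.10 below those of OE 67.5. The ranges of OE 67.5 and null 67.1 then overlapped, as did those of null 67.1 and null 67.5. Between couples, OE 67.5 minus null 67.1 was -0.47 ± 0.13 for Nrx1-1 and -0.23 ± 0.13 for TRXH, while OE 67.1 minus null 67.5 was -1.02 ± 0.13 and -0.87 ± 0.13; these pairs differ in couple as well as in transgene.

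Comparisons that the choice of the genes did not use ask whether the couples differ. The change of Nrx1-1 in couple 67.1 minus that in couple 67.5 was 0.59 ± 0.18 (95% interval 0.20 to 0.98), with an unadjusted p of 0.00543 and an adjusted p of 0.708 in limma over all tested probe sets. For TRXH it was 0.27 ± 0.19 (-0.13 to 0.67, adjusted p = 0.992). Neither passed the threshold of 0.05, which 8 probe sets did (0.033%), so the smaller change in couple 67.1 is a difference of the means that the adjusted test did not call. For TRXH the interval includes changes of equal size in both couples.

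**Figure D2:**
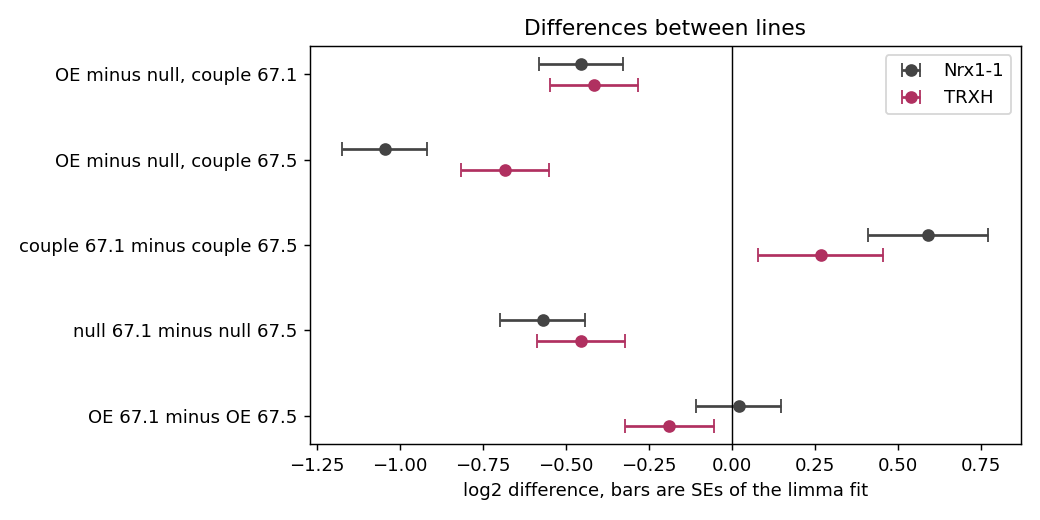
Log2 differences between lines (horizontal axis) for Nrx1-1 and TRXH, with bars of 1 SE from the limma fit on 12 arrays. Both couples and the null comparison lie below 0 for both genes, while OE 67.1 minus OE 67.5 lies at 0.02 for Nrx1-1 and -0.19 for TRXH.

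The null sister lines, none of which carries the transgene, were also compared with each other. Nrx1-1 was lower in null 67.1 than in null 67.5 by a log2 difference of -0.57 ± 0.13 (95% interval -0.84 to -0.30, adjusted p = 0.079, limma), and the arrays of these lines did not overlap, as in 11.4% of probe sets in this direction. TRXH differed by -0.45 ± 0.13 (-0.74 to -0.17, adjusted p = 0.133), and its arrays overlapped. At the threshold 56 probe sets passed (0.231%) and neither gene was one of them. Nrx1-1 did pass with the repetition number as a block (adjusted p = 0.0325), with array weights (0.0319) and without null 67.5 replicate 1 (0.0216), settings under which 507, 764 and 1113 probe sets passed. The size of the null difference stands beside couple 67.5 changes of -1.04 for Nrx1-1 and -0.68 for TRXH, and both comparisons share the null 67.5 arrays.

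Between the overexpressing lines Nrx1-1 differed by 0.02 ± 0.13 (95% interval -0.25 to 0.29, adjusted p = 0.931, limma), and its arrays overlapped. TRXH differed by -0.19 ± 0.13 (-0.47 to 0.10, adjusted p = 0.369); its OE 67.1 arrays all lay below those of OE 67.5, as in 18.3% of probe sets. In this comparison 201 probe sets passed (0.829%), and neither gene did. The 95% intervals thus reached as far as 0.29 for Nrx1-1 and -0.47 for TRXH on the log2 scale. For TRXH the pooled SE also draws on the null lines, with SDs of 0.22 and 0.28 against 0.002 and 0.08 in the overexpressing lines.

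Across the 12 arrays the 2 genes moved together mainly through the line means. Their Pearson r was 0.83 and their Spearman rho 0.72 over 12 arrays, given as a measure of likeness, since both genes had been chosen for the same contrast. The deviations of the arrays from their line means had r = -0.11. In null 67.1, for example, repetition 1 had the highest Nrx1-1 and the lowest TRXH level of its line. By likeness to Nrx1-1, TRXH ranked 57th of all probe sets.

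**Figure D3:**
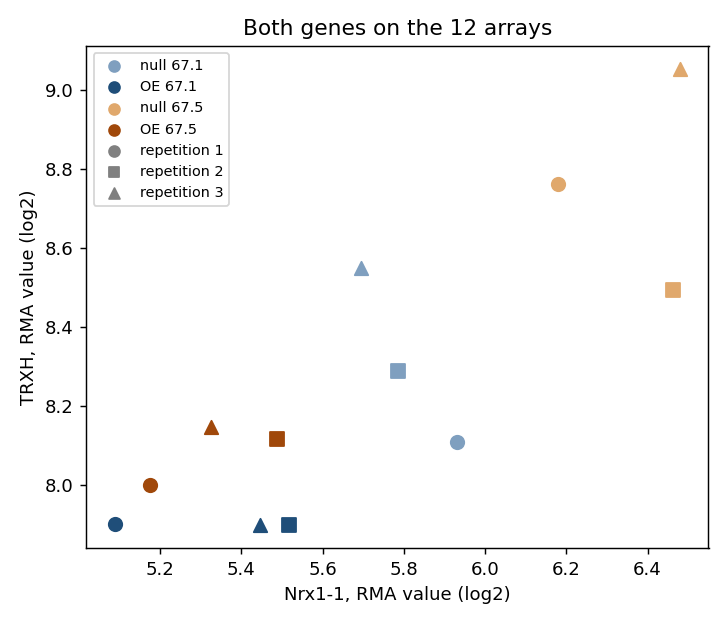
RMA value (log2) of TRXH (vertical axis) against Nrx1-1 (horizontal axis) on the 12 arrays, coloured by line, with symbols for the repetition. Null 67.5 stands at the upper right and the overexpressing lines at the lower left, while within a line the points follow no common slope (r = -0.11 for the deviations from line means).

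The genes most like each of the 2 over the 12 arrays were sought among all tested probe sets. For Nrx1-1 the closest with a name was HXK4 (LOC4326776), a hexokinase gene, with r = 0.93, followed by COA20, also listed as ROMT-15 (LOC4345934, r = 0.88), the heat shock protein gene HSP81-1 (LOC4345951, r = 0.87) and ICL (LOC4343441, r = 0.86), the isocitrate lyase of the glyoxylate cycle. Genes without a name stood closest, LOC4337456 with r = 0.935 and LOC4335922 with r = 0.933. For the deviations within lines the likeness was 0.53 and 0.42 for these unnamed genes, 0.29 for HXK4, 0.58 for HSP81-1, 0.05 for COA20 and -0.53 for ICL. ICL had the same order of line means as Nrx1-1 with a wider gap between the overexpressing lines: OE 67.1 minus OE 67.5 was 0.55 ± 0.11 for ICL (adjusted p = 0.0386, limma, and 0.0203 to 0.183 over the arrays left out, past the threshold in 5 of 12) against 0.02 for Nrx1-1.

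For TRXH the closest gene with a name was MSRB5 (LOC4332888), of the methionine sulfoxide reductases, enzymes that repair oxidised methionine and are known to draw their electrons from thioredoxins. Its r with TRXH was 0.94, and 0.76 for the deviations within lines. MSRB5 read 7.45, 7.54 and 7.67 in null 67.1, 7.47, 7.39 and 7.42 in OE 67.1, 7.66, 7.75 and 7.87 in null 67.5, and 7.42, 7.53 and 7.55 in OE 67.5. Its arrays overlapped in couple 67.1, and its mean difference of -0.19 did not pass (adjusted p = 0.358, limma). Next came HXK4 (r = 0.92), the trehalose phosphatase gene TPP8 (LOC4340524, r = 0.92) and the phytoene synthase gene PSY1 (LOC4342137, r = 0.92). The unnamed genes closest to TRXH were LOC4340123 (r = 0.96, and 0.83 within lines) and LOC4330677 (r = 0.95, and 0.73 within lines). Lowest among the genes with a name, for both members, were AGO18 (LOC4343201), an Argonaute gene, and MSL1 (LOC4328601). AGO18 had r of -0.87 for Nrx1-1 and -0.84 for TRXH, and MSL1 had -0.82 and -0.81.

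Among the 4 named and 2 unnamed genes most like each member, with HXK4 in both sets, 4 in all were past the threshold on the mean of both couples. Of all tested probe sets 0.186% were. ICL fell by 1.38 ± 0.08 (adjusted p = 2.84e-07, limma), with arrays at 6.20, 6.21 and 6.14 in null 67.1, 5.37, 5.36 and 5.29 in OE 67.1, 6.88, 6.69 and 6.58 in null 67.5, and 5.01, 4.73 and 4.63 in OE 67.5. HXK4 fell by 0.34 ± 0.06 (adjusted p = 0.0393, limma), a call kept in 0 of 12 cases when 1 array was left out. LOC4330677 fell by 0.58 ± 0.07 (adjusted p = 0.00176) and kept its call without each array. LOC4340123 fell by 0.58 ± 0.09 (adjusted p = 0.0185), and its call was kept in 9 of 12 cases, all but those without OE 67.1 replicate 2 or 3 or OE 67.5 replicate 3. Since likeness to genes with a fall in both couples favours genes with such a fall, these calls are no separate evidence.

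The other genes of the redox systems were counted beside all tested probe sets. So small a share of all probe sets was called that 0 or 1 calls among 79 relatives say nothing particular about the relatives. Of 79 measured relatives in 7 lists, none passed on the mean of both couples, against 0.186% of all probe sets called in either direction, and 4 had an unadjusted p under 0.05 in limma, against 9.0% of all probe sets. On this contrast 44 of the 79 (55.7%) lay below 0 with a median of -0.01. Over all tested probe sets 46.8% did, with a median of 0.008. The differences of the relatives ran from -0.29 to 0.24. None was called in couple 67.1 (all probe sets 0.0165%), in couple 67.5 (0.342%) or between the couples (0.033%), where 4, 6 and 3 had an unadjusted p under 0.05 in limma, against 3.46%, 10.8% and 5.0% of all probe sets. In couple 67.1 the relatives ran from -0.57 to 0.28 and in couple 67.5 from -0.34 to 0.32. The lowest in couple 67.1 was GRXC15 (LOC4352426), at -0.57 ± 0.26 with an unadjusted p of 0.0433 and an adjusted p of 1.00 in limma, a larger difference than that of either chosen gene there, with an SD of 0.73 among its null 67.1 arrays. Between the null lines none was called and 15 had an unadjusted p under 0.05 (all probe sets 17.5%). Between the overexpressing lines 1 was called, as higher in OE 67.1 (all probe sets 0.318%), and 12 had an unadjusted p under 0.05 (25.7%).

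**Figure D4:**
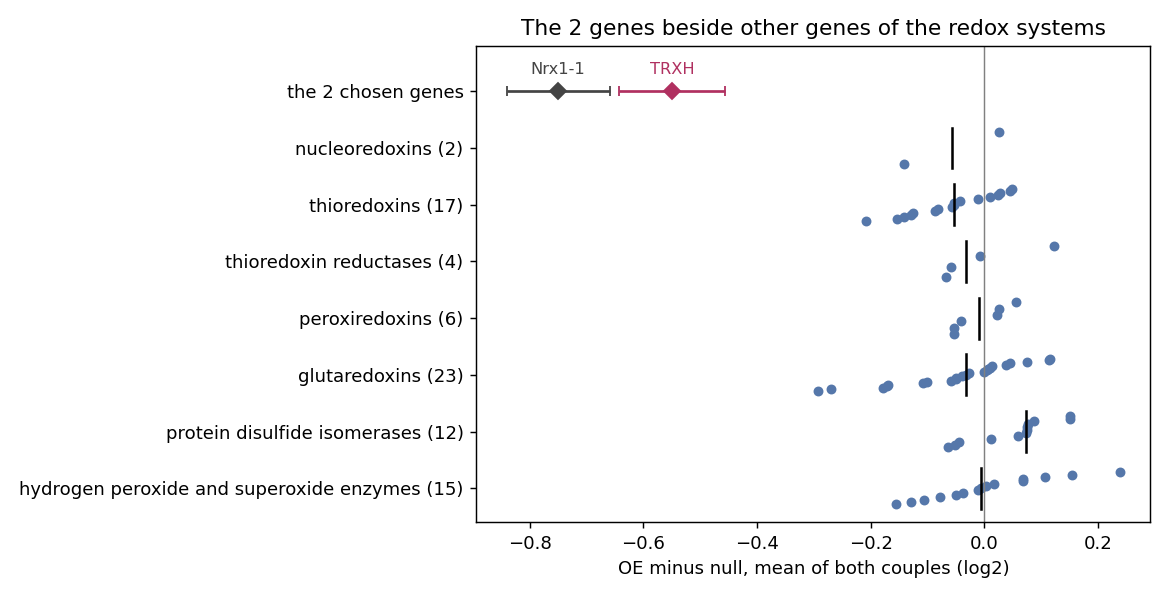
Log2 difference between overexpressing and null lines, as the mean of both couples (horizontal axis), for the measured genes of 7 redox lists (points, with list sizes in brackets and the list median as a vertical line) and for Nrx1-1 and TRXH (diamonds with SE), which were chosen for this difference. The relatives lie between -0.29 and 0.24.

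The nucleoredoxin gene Nrx1-2 (LOC4333077) is the nearest relative of Nrx1-1 by name and lies 4 places from it in the gene order. Its log2 level was 5.16, 4.83 and 5.11 in null 67.1 and 4.97, 5.12 and 5.11 in OE 67.1. In null 67.5 it was 5.14, 5.45 and 5.76, against 4.98, 5.00 and 5.42 in OE 67.5. The arrays overlapped in both couples. The mean difference was -0.14 ± 0.11 (adjusted p = 0.72, limma), with 0.03 in couple 67.1 and -0.32 in couple 67.5, and null 67.1 minus null 67.5 was -0.41 ± 0.15 (adjusted p = 0.2). Whether Nrx1-1 and Nrx1-2 differ in their change was not tested, and the probe sequences that would tell how far related transcripts share signal were not used here. Nrx2 (LOC4324135), the other measured nucleoredoxin gene, had a mean difference of 0.03 ± 0.08.

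Of 17 further thioredoxin genes 12 lay below 0 on the mean of both couples, with a median of -0.05, and none passed. Of all tested probe sets 46.8% lay below 0. The other genes of the h type, Trxh2-1, Trxh2-2, Trxh4-1, Trxh4-2 and Trxh5, had mean differences of -0.13, -0.01, -0.09, 0.01 and -0.04. The smallest p in the list was that of Trxf (LOC4324320), a thioredoxin of the chloroplast, at -0.21 ± 0.08 (adjusted p = 0.484, limma), with a null 67.1 minus null 67.5 difference of -0.44 ± 0.12 (adjusted p = 0.113). Its level was 7.43 in null 67.1, 7.36 in OE 67.1, 7.87 in null 67.5 and 7.52 in OE 67.5, so null 67.5 was highest, as for both chosen genes. Trxx (LOC4337394), another chloroplast form, came next with -0.15 ± 0.08.

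On the mean of both couples the genes of enzymes that reduce thioredoxins lay between -0.07 and 0.12. NTRA (LOC4340912) and NTRB (LOC4330505), NADPH-dependent reductases, had mean differences of -0.07 ± 0.06 and -0.01 ± 0.07. NTRC (LOC4344159), the chloroplast reductase with a thioredoxin domain of its own, had 0.12 ± 0.08, and FTR-B (LOC4346508), of the ferredoxin-dependent reductase, -0.06 ± 0.08. In couple 67.5 by itself NTRC was at 0.24 ± 0.11. Between the null lines 2 of the 4 had an unadjusted p under 0.05 in limma, against 17.5% of all probe sets. None of the 4 passed in any comparison. The 6 peroxiredoxins, peroxidases that take electrons from thioredoxins, had 3 members below 0 on the mean of both couples and none called. There PRXIIC (LOC4325511) was at 0.06 ± 0.07 and PRXIIF (LOC4324376) at -0.05 ± 0.07.

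Glutaredoxins, which use glutathione in place of thioredoxin reductase, had 14 of 23 measured members below 0 on the mean of both couples, with a median of -0.03. GRXC6 (LOC4336354) had the smallest p, at -0.27 ± 0.07 (adjusted p = 0.227, limma), and GRXC1 (LOC4325734) followed with -0.17 ± 0.08. GRXC13 (LOC9269626) was the 1 relative called in any comparison: OE 67.1 exceeded OE 67.5 by 0.72 ± 0.14 (adjusted p = 0.044, and 0.0232 to 0.18 over the arrays left out, past the threshold in 5 of 12). The call was kept only without null 67.1 replicate 3, OE 67.1 replicate 3, null 67.5 replicate 1 or 3, or OE 67.5 replicate 1. The OE 67.1 arrays of GRXC13 read 6.45, 6.04 and 5.85 and those of OE 67.5 5.52, 5.29 and 5.38, which do not overlap.

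Protein disulfide isomerases form disulfide bonds in the endoplasmic reticulum with domains of the thioredoxin fold. Of these genes 9 of 12 lay above 0 on the mean of both couples, with a median of 0.07. Of all 24251 tested probe sets 12895 lay above 0. None passed, and the smallest p belonged to PDIL5-1 (LOC4332486, 0.15 ± 0.07) and PDIL1-4 (LOC4327971, 0.15 ± 0.08). Of 15 enzymes that act on hydrogen peroxide and superoxide 8 lay below 0. The catalase genes in this list, CatA and CatB, had its smallest p and opposite signs. CatB (LOC4342124) was at -0.16 ± 0.06 (adjusted p = 0.461, limma) and CatA (LOC4328073) at 0.24 ± 0.10 (adjusted p = 0.512).

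CatB was the 1 of the 79 relatives (1.27%) whose overexpressing arrays all lay on 1 side of the null arrays in both couples, against 1.2% of all tested probe sets. It read 6.19, 6.27 and 6.29 in null 67.1, 6.16, 6.10 and 6.17 in OE 67.1, 6.34, 6.40 and 6.58 in null 67.5, and 6.26, 6.24 and 6.20 in OE 67.5. The order of its line means was that of TRXH, and its r with TRXH over the 12 arrays was 0.91 (0.64 within lines), the 10th highest of all probe sets. With Nrx1-1 it had r = 0.78 (0.06 within lines). The other catalase gene of the list, CatA, had the lowest r of the 79 relatives with both genes. It was -0.63 with TRXH (-0.04 within lines) and -0.49 with Nrx1-1 (0.53 within lines). Over the 79 relatives the median r was 0.17 with TRXH and 0.06 with Nrx1-1. Over all tested probe sets the median r was 0.005 and -0.008.

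The genes next to the 2 in the gene order were described for comparison, by their place in the gene table and without coordinates. Of the 10 nearest genes of Nrx1-1 8 were measured, and none passed in any comparison; their couple 67.5 differences ran from -0.32 for Nrx1-2 to 0.18 for LOC4333071. Of the 10 nearest genes of TRXH 6 were measured, and their mean differences lay between -0.12 for LOC4342595 and 0.07 for LOC4342596. One of them, LOC4342588, 5 places away, was lower in null 67.1 than in null 67.5 by -0.55 ± 0.09 (adjusted p = 0.0165, limma, kept in 8 of 12 cases when 1 array was left out and lost without null 67.1 replicate 1 or 2 or null 67.5 replicate 2 or 3). It was also lower in OE 67.1 than in OE 67.5 by -0.40 ± 0.09 (adjusted p = 0.0493, kept only without OE 67.1 replicate 3 or null 67.5 replicate 1), while its overexpressing minus null difference was 0.14 in couple 67.1 and -0.01 in couple 67.5.

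**Figure D5:**
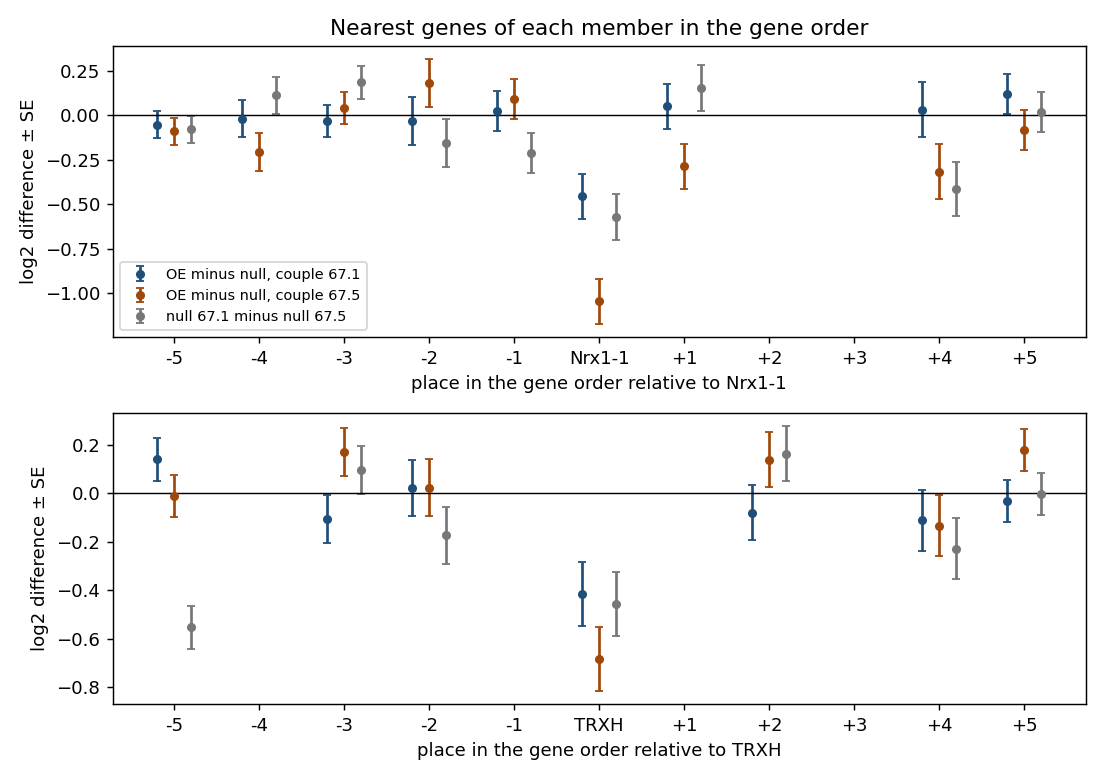
Log2 differences with SE (vertical axes) for the 5 nearest genes on each side of Nrx1-1 (top) and TRXH (bottom), by place in the gene order; a place without points has no probe set. In couple 67.5 the OE minus null differences of Nrx1-1 and TRXH, -1.04 and -0.68, lie below those of every measured neighbour. Both genes were chosen for a low difference and the neighbours were not, so this order follows from the choice and supports nothing further.

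Marker genes of tissues that the stem base can hold were measured on the same arrays. None passed in any comparison, where between 0.0165% and 0.829% of all probe sets did, so a count of 0 says nothing particular about them. For phloem, where the TRXH protein is known to be abundant, 4 of 7 markers lay below 0 on the mean of both couples, and the mean log2 level of the list ran from 5.85 to 6.02 in null 67.1, 5.85 to 6.00 in OE 67.1, 5.91 to 6.00 in null 67.5 and 5.94 to 6.02 in OE 67.5. These ranges overlap, and the part of phloem content in the levels of TRXH was not tested. All 5 genes of the shoot apical meristem, the KNOX genes OSH1, OSH6, OSH15, OSH43 and OSH71, lay below 0, at a median of -0.07, as did 5 of 7 markers of crown root primordium and root. Of all tested probe sets 46.8% lay below 0 on the mean of both couples. For green tissue all 4 markers lay below 0, and the list mean was highest in null 67.5 (7.62 to 7.80), against 7.37 to 7.43 in null 67.1, 7.32 to 7.40 in OE 67.1 and 7.36 to 7.57 in OE 67.5. Among markers of the germinating seed 4 of 6 lay below 0, with AMY1.1 (LOC4330832) at -0.60 ± 0.12 (adjusted p = 0.0783, limma).

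The list for dying or senescing tissue held SAG12, SGR, LSD1 and the LOL2 genes. Its genes were matched by name, and whether LSD1 and LOL2 levels mark such tissue was not tested. On the mean of both couples 2 of 5 members lay below 0, with SGR at 0.14. The list mean was 5.07 to 5.54 in null 67.1, 5.03 to 5.27 in OE 67.1, 5.49 to 5.63 in null 67.5 and 5.27 to 5.33 in OE 67.5. SAG12 (LOC4324982), a cysteine protease gene of senescence, had the largest difference of this list, -1.04 ± 0.21 (adjusted p = 0.0778, limma), with null arrays at 5.11, 5.24 and 6.39 in couple 67.1 and 6.41, 5.19 and 6.06 in couple 67.5, and overexpressing arrays between 4.59 and 4.85. Within the list SAG12, LSD1 and LOL2 (LOC4352767) had their highest mean in null 67.5. SGR and LOL2 (LOC4325320) had theirs in OE 67.5, at 4.33 and 6.12 against 4.16 and 5.98 in null 67.5. The ranges of the green list and of this mixed list, whose members shared no direction, were highest in null 67.5. In that line Nrx1-1 and TRXH were highest too. The same held for the shoot apical meristem list, at 4.67 to 4.87 against 4.58 to 4.73 in null 67.1 and 4.59 to 4.69 in OE 67.5. The part of these tissues in the levels of Nrx1-1 and TRXH was not tested.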

How the data were processed

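Total RNA of pooled stem bases was labelled as biotinylated cRNA and hybridised to 1-colour Affymetrix arrays, per the labels' protocols. The deposited values are log2 expression after RMA, per the submitters' processing notes; the sources used here give no RMA version, build or probe annotation. RMA equalises the distributions of arrays, so differences in total RNA cannot be seen, and it compresses differences of weak signals; signal over background was not used here.

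Of 36643 probe sets, 24251 paired with a gene were tested, and no further scaling was applied. The fit of 4 line means used lmFit and eBayes of limma 3.58.1 under R 4.3.3, on 12 arrays with 8 residual degrees of freedom. Two-sided p-values were adjusted after Benjamini and Hochberg across these 24251, and calls were made at 0.05. Exact permutation of 3 arrays against 3 cannot go below p = 0.1. The SEs measure the spread between arrays of a line; an association with the transgene cannot be told apart from other differences between sister lines.

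The members and lists were chosen with earlier results of these data known. Redox lists and markers were matched by name in the gene table of assembly ASM3414082v1, with 79 of 80 redox relatives measured; that table also gave the gene order, and the markers RPP10, FCP1, CRL5, PT2, PSAN, PSBO, LHCB, NAP and MC1 were left out for want of a clear match or a probe set. Named genes were the members, for each the 4 named and 2 unnamed probe sets of highest Pearson r and the 2 named of lowest r, the 2 smallest p of each list, and every called relative; other relatives named (the remaining h-type and reductase genes, GRXC15, PDIL5-3, marker genes and neighbours) were chosen after their values were seen. Protein and promoter sequences were not used here. Alternatives were all probe sets, a further quantile normalization, only probe sets at or above the median brightness, the repetition number as a block, a mean-variance trend, array weights and leaving out each array.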

Additional observations from a re-analysis of the deposited data

Results flagged for a closer look

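PDIL5-3 (LOC4329624), a gene of the protein disulfide isomerase list, lay on opposite sides in the couples, with no overlap of arrays in either, as did 0.408% of all tested probe sets. It read 6.03, 6.03 and 5.89 in null 67.1 against 5.82, 5.80 and 5.80 in OE 67.1, and 5.73, 6.05 and 5.97 in null 67.5 against 6.18, 6.13 and 6.40 in OE 67.5. The difference was -0.17 ± 0.10 in couple 67.1 (adjusted p = 1.00, limma) and 0.32 ± 0.10 in couple 67.5 (adjusted p = 0.285), and neither passed. The difference in couple 67.1 minus that in couple 67.5 was -0.49 ± 0.15, with an unadjusted p of 0.00447 and an adjusted p of 0.664 in limma, so the difference between the couples did not pass.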

How the results depend on the processing

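Of 216 recomputed values of Nrx1-1 and TRXH over 6 comparisons, 209 kept their direction and, in the 3 comparisons that were tested, their side of the threshold; in the others, which chose the genes, they moved by less than 1 SD. Nrx1-1 in null 67.1 minus null 67.5 passed with the replicate block (-0.57), with array weights (-0.59) and without null 67.5 replicate 1; over the arrays left out it ran from -0.67 to -0.52. In OE 67.1 minus OE 67.5, close to 0, Nrx1-1 reversed with array weights (-0.0033), without OE 67.1 replicate 2 (-0.0626) or 3 (-0.03) and without OE 67.5 replicate 1 (-0.06), within a range of -0.0626 to 0.152. The cause was not tested. Those 209 include settings under which TRXH would not have been called: over all 36643 probe sets on the mean of both couples (adjusted p = 0.0968, limma) and in couple 67.5 (0.125), with array weights in couple 67.5 (0.0634), and in 9 of 12 cases each when 1 array was left out. It was still called on the mean without null 67.1 replicate 1 or null 67.5 replicate 2 or 3, and in couple 67.5 without null 67.1 replicate 1 or 3 or null 67.5 replicate 2. Arrays of equal repetition number deviated together in part. Over 18 same-numbered pairs r had a median of 0.16, ran from -0.25 to 0.42 and exceeded 0.1 in 11. Over 36 pairs of unequal number the median was -0.07, with a range of -0.39 to 0.35 and 9 above 0.1. The main fit took no account of the repetition number. The block changed no member call but that of Nrx1-1 between the null lines, and moved the count between overexpressing lines from 201 to 2048 and between null lines from 56 to 507.

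Counts of called probe sets moved on the mean of both couples to 25 with all probe sets and 14 to 46 leaving out an array, and in couple 67.5 to 33 and 20 to 88. In couple 67.1 the count was 7 with quantile normalization, the brighter probe sets or array weights, 8 with the trend, and 2 to 6 leaving out an array. Between couples it was 5 with quantile normalization and 3 to 7 leaving out an array. Between null lines it was 764 with array weights and 10 to 1113 leaving out an array, and between overexpressing lines 61 with all probe sets or quantile normalization, 525 with array weights and 20 to 930. Redox relatives called between null lines numbered 2 with the block, 1 with array weights and 0 to 2 leaving out an array, and between overexpressing lines 0 with all probe sets or quantile normalization, 5 with the block, 2 with array weights and 0 to 3. The planned promoter motif search was not run. With 3 arrays a line, the number of arrays limits the precision.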
